A study of Mus musculus with 16 samples.

Results

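The genes described here are the 10 core genes of extracellular TGF-β signalling, taken as the rows of the mouse heart count matrix that carry the symbols Tgfb1, Tgfb2, Tgfb3, Ltbp1, Ltbp2, Ltbp3, Ltbp4, Tgfbr1, Tgfbr2 and Tgfbr3. They are 3 ligands, 4 latent TGF-β binding proteins (LTBPs) and 3 receptors among 55573 genes listed, and all 10 passed the filter on low counts. Bulk RNA-seq was done on ventricles of 16 mice in 4 groups of 4. All of these mice, controls included, carried the αMHC-MerCreMer transgene and 2 floxed Trbp alleles (Trbp-Flox/Flox), so Cre activity depends on a cardiomyocyte promoter and on tamoxifen. Males were injected from 4 weeks of age on 5 days, with corn oil in controls or with 30 mg/kg tamoxifen to give the Trbp-cKO, and then had sham surgery or transverse aortic constriction (TAC), a ligature on the aorta that overloads the ventricle. The ages and doses come from the study's methods. Hearts were collected about 8 weeks after surgery, at 16 weeks of age. The groups are control sham, control TAC, Trbp-cKO sham and Trbp-cKO TAC, and because tamoxifen was given to the Trbp-cKO groups alone, the drug and the deletion cannot be told apart.

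TGF-β is secreted in a latent form, in which the cleaved propeptide stays wrapped around the growth factor and is usually bound to an LTBP that anchors the complex in the extracellular matrix. Integrins, proteases and matrix proteins release the ligand, which binds the type II receptor (Tgfbr2), recruits the type I receptor (Tgfbr1) and leads to phosphorylation of Smad2 and Smad3, while the co-receptor betaglycan (Tgfbr3) presents ligand, Tgfb2 in particular. In the heart the pathway is known for turning fibroblasts into matrix-producing myofibroblasts. Ltbp2, unlike the other LTBPs, is not known to bind latent TGF-β and is a component of elastic microfibrils.

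The promoters of 3 members are shown because their transcripts behaved differently, Tgfb2 and Ltbp3 rising after TAC in Trbp-cKO hearts and Tgfb1 not passing the test. Each is the RefSeq sequence (GRCm38.p6) of the 250 bases before the start site, 5′ to 3′ on the gene's strand. Capitals mark matches on either strand to 7 motifs. The SMAD-binding element was searched as CAGAC, the E-box as CACGTG, the TATA box as TATAAA, the pentamer bound by NF-Y as CCAAT, the Sp1-type GC box as GGGCGG, the AP-1 element as TGACTCA and the full cAMP response element as TGACGTCA. Of these motifs, none contains another.
Tgfb2, chr1:186705990-186706239, minus strand: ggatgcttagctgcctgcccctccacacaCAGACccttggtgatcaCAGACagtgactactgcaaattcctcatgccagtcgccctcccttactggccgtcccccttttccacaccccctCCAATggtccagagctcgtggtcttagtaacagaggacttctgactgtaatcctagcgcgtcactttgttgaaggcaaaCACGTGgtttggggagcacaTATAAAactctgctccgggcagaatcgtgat
Tgfb1, chr7:25686752-25687001, plus strand: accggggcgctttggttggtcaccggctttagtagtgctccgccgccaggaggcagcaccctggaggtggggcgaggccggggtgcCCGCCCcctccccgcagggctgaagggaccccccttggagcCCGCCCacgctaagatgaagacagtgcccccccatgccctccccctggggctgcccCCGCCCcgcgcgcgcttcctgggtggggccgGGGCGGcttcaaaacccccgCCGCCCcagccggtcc
Ltbp3, chr19:5740650-5740899, plus strand: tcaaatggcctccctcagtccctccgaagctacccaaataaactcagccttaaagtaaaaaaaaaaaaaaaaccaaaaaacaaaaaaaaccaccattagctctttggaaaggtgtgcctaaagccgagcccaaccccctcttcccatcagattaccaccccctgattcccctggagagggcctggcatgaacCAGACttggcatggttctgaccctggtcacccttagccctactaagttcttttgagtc

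The Tgfb2 window held 2 CAGAC matches, at 221 and 204 bases before the start, an E-box at 51 and a TATA box at 31. The Tgfb1 window held 5 GGGCGG matches and no CAGAC. Ltbp3 had a single CAGAC, 58 bases before its start. CAGAC was also in the windows of Ltbp1, which fell after TAC short of the fold threshold. It was in windows of Ltbp2, Tgfbr1 and Tgfbr2 as well. Whether a motif goes with the response to TAC was not tested. CAGAC was found in 7 of the 12 windows listed for members and in 42.2% of all 32851 windows of this length, so a match is common. Some genes have several starts with windows that can overlap, and no window was listed for Tgfb3 or Tgfbr3. GGGCGG was found in 6 of the 12 and in 32.7% of all windows. By contrast, CACGTG was found in 6.02% and TATAAA in 12.4% of all windows. TGACTCA was in none of the 12 and in 4.46% of all. Letters in a window do not show that a factor binds there.

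Library totals ranged from 45166994 to 68274222 counts and each member had between 371 and 61800 counts in every heart. Mitochondrial genes took 18.2 to 38.8% of counts, with a mean of 31.0% in control TAC hearts and 20.6% in Trbp-cKO TAC hearts. Tarbp2, the gene that encodes Trbp, was at 30.6 to 33.3 CPM (counts-per-million on TMM-scaled library sizes) in control sham, 21.1 to 31.1 in control TAC, 8.39 to 11.4 in Trbp-cKO sham and 7.14 to 9.74 in Trbp-cKO TAC hearts. It was lower in every heart labelled Trbp-cKO than in every control heart. Cardiomyocyte markers were abundant in every group, whereas the atrial markers Myl7, Sln and Bmp10 averaged under 1 CPM in each group. Myl4, another atrial marker, was higher in Trbp-cKO TAC than in control TAC hearts (log2 1.90, adjusted p = 0.00019). In bulk tissue, fewer cells of a type and less RNA per cell cannot be told apart. In control TAC, replicates 1 and 2 stood apart from replicates 3 and 4: the summed level of 8 cardiomyocyte markers was 24160 and 19215 CPM in the former and 44667 and 44340 CPM in the latter. Replicates 1 and 2 also had the higher mitochondrial share (38.2 and 38.8%, against 25.2 and 21.7%), the higher endothelial (1496 and 1636 against 811.6 and 778.6 CPM) and activated fibroblast marker sums (639.5 and 730.6 against 268.3 and 324.0 CPM), and the higher Tgfb1, Tgfb2, Tgfb3, Ltbp2, Ltbp3, Ltbp4, Tgfbr1 and Tgfbr2. The part of this split in the member values was not tested.

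**Figure D1:**
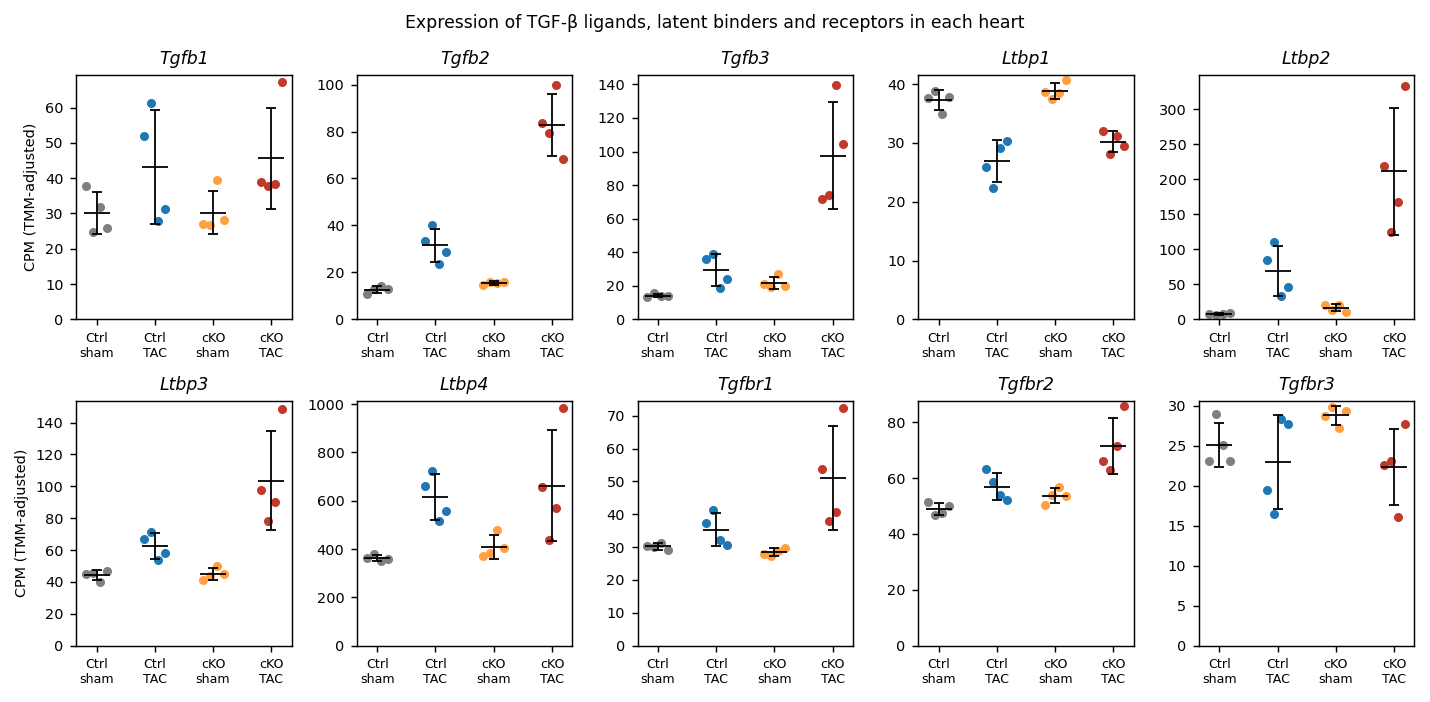
Level of each member in each heart, in CPM on TMM-adjusted library sizes, for control (Ctrl) and Trbp-cKO (cKO) hearts after sham surgery or TAC. Points are hearts, horizontal bars are means and error bars are SD (n = 4); the axes start at 0 and differ between panels. Tgfb2, Tgfb3 and Ltbp2 are highest in all 4 Trbp-cKO TAC hearts, and Tgfb1 overlaps between the groups compared.

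Among the ligands, Tgfb2 and Tgfb3 rose after TAC in both backgrounds and were higher in Trbp-cKO TAC than in control TAC hearts, whereas Tgfb1 passed the test in none of these comparisons. A member was called at a Benjamini-Hochberg adjusted p of 0.05 or less, over 19955 genes tested, with a log2 fold change of 0.8 or more in either direction. Tgfb2, the isoform most dependent on betaglycan for receptor binding, was at 10.7, 12.9, 14.3 and 12.9 CPM in control sham hearts and at 33.5, 40.4, 23.5 and 28.8 CPM in control TAC hearts. It was at 14.6, 15.97, 15.4 and 16.1 CPM in Trbp-cKO sham hearts and at 83.6, 79.4, 99.8 and 68.3 CPM in Trbp-cKO TAC hearts. The TAC hearts of each background lay above all of their sham hearts, and the lowest Trbp-cKO TAC heart lay above the highest control TAC heart. The rise after TAC was 2.48-fold in controls (log2 fold change 1.31, SE 0.15, adjusted p = 0.00037) and 5.33-fold in Trbp-cKO hearts (2.41, SE 0.16, adjusted p = 7.43e-07). The Trbp-cKO level was 2.63-fold higher than in control TAC hearts (95% interval 2.097 to 3.29, adjusted p = 0.000119).

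The Tgfb2 response to TAC itself differed between backgrounds. The interaction, the log2 response to TAC in Trbp-cKO minus that in control hearts, was 1.10 (SE 0.21, adjusted p = 0.026), that is a response 2.15 times as large (95% interval 1.57 to 2.94). Tgfb2 was the only one of the 10 members to pass both thresholds for this term, which 0.446% of all genes passed in the higher and 0.426% in the lower direction (0.591% and 0.456% by the adjusted p alone). This call depended on single hearts: the adjusted p was 0.0757 without control sham replicate 3, 0.056 without control sham replicate 4, and 0.0506, 0.0541 and 0.0515 without Trbp-cKO sham replicates 2, 3 and 4, with the value between 0.99 and 1.24 whichever heart was left out. A score of circadian clock genes (positive-arm minus negative-arm genes, in SD units) also differed between some of the groups, at 0.760 to 1.61 in control sham, -0.453 to 0.0972 in control TAC, -1.28 to -1.11 in Trbp-cKO sham and -0.697 to 1.48 in Trbp-cKO TAC hearts. With this score in the fit the Tgfb2 interaction was 0.75 (adjusted p = 0.38), and both rises after TAC were still called. The scores of control sham, control TAC and Trbp-cKO sham hearts do not overlap. Score and group are therefore hard to separate in this fit, here and below. Collection times are not given in the sources used here, and whether the deletion or TAC changes the score was not tested. With a block for replicate number (replicate block) the interaction was 1.10 (adjusted p = 0.0751) and was not called.

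Tgfb3, which encodes the remaining TGF-β isoform, was at 13.3, 15.6, 14.1 and 13.9 CPM in control sham hearts and at 35.7, 39.2, 18.8 and 24.3 CPM in control TAC hearts. Trbp-cKO sham hearts had 20.99, 19.5, 27.1 and 19.6 CPM, and Trbp-cKO TAC hearts had 71.6, 73.9, 139.5 and 104.4 CPM. Every Trbp-cKO TAC heart was above every control TAC heart, and control TAC replicates 3 and 4 lay within or near the range of the Trbp-cKO sham hearts. Tgfb3 rose 2.07-fold after TAC in controls (log2 1.05, SE 0.24, adjusted p = 0.0194) and 4.47-fold in Trbp-cKO hearts (2.16, SE 0.24, adjusted p = 4.89e-05), and was 3.30-fold higher in Trbp-cKO TAC than in control TAC hearts (1.72, SE 0.24, adjusted p = 0.000757). Its interaction had a similar size to that of Tgfb2 but a larger error (1.11, SE 0.33, adjusted p = 0.123), and was -0.22 with the clock score in the fit, where the rise after TAC was 1.66 in controls and 1.44 in Trbp-cKO hearts. The rise in controls lost its call without control sham replicate 1, 3 or 4 or control TAC replicate 1 or 2 (adjusted p 0.0546 to 0.0687), with fold changes of 0.88 to 1.21 on the log2 scale over all single-heart omissions. It also lost its call with the replicate block (0.052). The Tgfb3 difference between the TAC groups lost its call in a fit of those groups alone (0.0526). The gene (chr12:86056745-86079041, minus strand) shares 12.4% of its exonic bases with genes on the other strand; the one with sizeable counts, Ttll5, was at 12.5 to 16.1 CPM in Trbp-cKO TAC and 9.34 to 11.7 CPM in control TAC hearts. Whether counting used strand is not given in the sources used here.

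Tgfb1, the isoform most often studied in fibrosis, was at 37.6, 24.8, 31.7 and 25.8 CPM in control sham hearts and at 51.9, 61.2, 27.8 and 31.2 CPM in control TAC hearts. It was at 26.9, 26.6, 39.3 and 28.2 CPM in Trbp-cKO sham hearts and at 39.0, 37.8, 38.3 and 67.2 CPM in Trbp-cKO TAC hearts. The groups overlapped in every comparison, and 1 Trbp-cKO TAC heart, replicate 4, was far above the other 3. The log2 fold change was 0.52 (SE 0.26, adjusted p = 0.207) for TAC in controls, 0.59 (SE 0.26, adjusted p = 0.18) for TAC in Trbp-cKO hearts and 0.08 (SE 0.26, adjusted p = 0.886) between the TAC groups. The last has a 95% interval of 0.725- to 1.55-fold, and the fold differences of Tgfb2 and Tgfb3 between these groups lie outside it.

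The make-up of the ligand transcripts was compared next. Levels were divided by exonic length (CPM per kb) for comparisons between genes, with no test. In control sham hearts Tgfb1 held 47.9% ± 6.3 (SD, n = 4) of the summed ligand level, Tgfb3 34.2% ± 4.2 and Tgfb2 17.9% ± 2.6. In Trbp-cKO TAC hearts Tgfb3 held 54.3% ± 6.0, Tgfb2 28.1% ± 5.6 and Tgfb1 17.6% ± 5.0. Control TAC hearts lay between, with 37.1% ± 2.6 for Tgfb1, and Trbp-cKO sham hearts had 39.5% ± 2.0. The summed ligand level per kb was 12.3 ± 0.87 (control sham), 22.7 ± 7.2 (control TAC), 15.1 ± 2.2 (Trbp-cKO sham) and 52.1 ± 11.1 (Trbp-cKO TAC). With the longest transcript as the length, the Tgfb1 share was 63.1% in control sham and 28.4% in Trbp-cKO TAC hearts. In the latter Tgfb2 then held 26.4%, so the order of Tgfb1 and Tgfb2 turned with the length used.

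**Figure D2:**
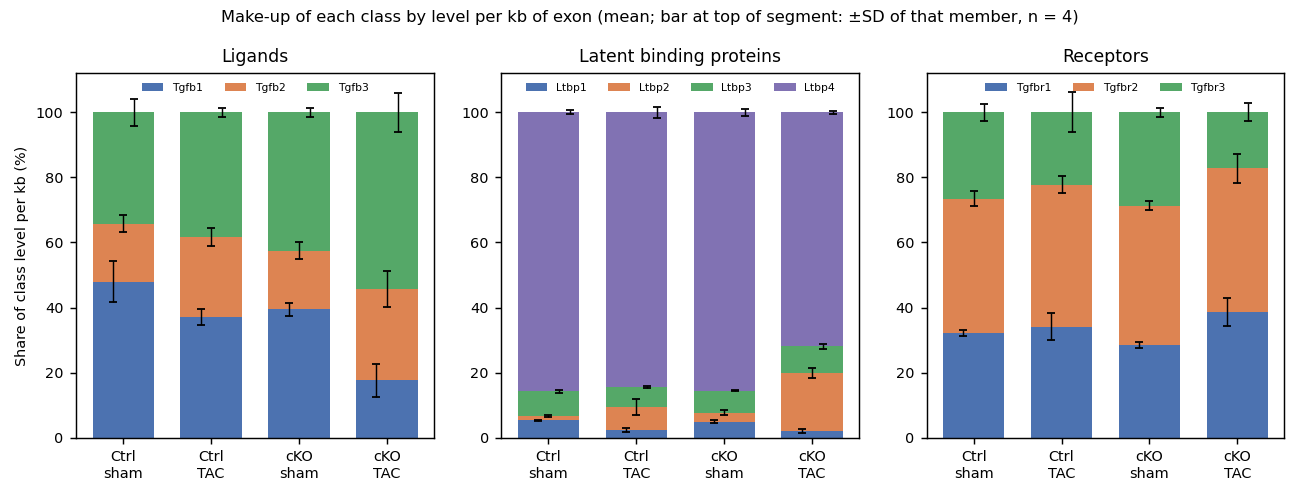
Share of each member in the summed level per kb of exon of its class (ligands, LTBPs, receptors), as group means in percent; each error bar is the SD of the member whose segment it tops (n = 4). Tgfb1 is 47.9% of the ligand level in control sham and 17.6% in Trbp-cKO TAC hearts, and Ltbp2 takes 17.7% of the LTBP level in Trbp-cKO TAC hearts.

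The 4 LTBPs did not move together: Ltbp2 rose most of all members after TAC, Ltbp3 rose in Trbp-cKO hearts, Ltbp4 rose modestly and Ltbp1 fell. Ltbp2 (chr12:84783212-84876532, minus strand) was at 7.77, 5.83, 7.78 and 8.58 CPM in control sham hearts and at 85.1, 110.6, 33.3 and 45.5 CPM in control TAC hearts. It was at 21.1, 13.9, 19.8 and 10.5 CPM in Trbp-cKO sham hearts and at 219.3, 124.8, 167.2 and 333.1 CPM in Trbp-cKO TAC hearts. The 4 groups did not overlap at all. The rise after TAC was 9.16-fold in controls (95% interval 5.16 to 16.3, adjusted p = 0.000573) and 12.9-fold in Trbp-cKO hearts (7.21 to 23.2, adjusted p = 3.47e-05), and the level in Trbp-cKO TAC was 3.08-fold that in control TAC hearts (1.80 to 5.26, adjusted p = 0.0191). For the interaction the value was 0.50 (SE 0.51, adjusted p = 0.682), so a difference in response between backgrounds was not detected for Ltbp2. The 3.08-fold difference had an adjusted p of 0.162 in a fit of the 2 TAC groups alone, in which Tgfb3 had 0.0526. On the opposite strand D030025P21Rik, which covers 9.34% of Ltbp2 exonic bases, was at 0.699 CPM at most.

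Ltbp3, which aids secretion and matrix storage of latent TGF-β, was at 44.7, 45.5, 40.0 and 47.1 CPM in control sham hearts and at 66.6, 71.6, 53.6 and 58.4 CPM in control TAC hearts. It was at 41.5, 43.9, 50.1 and 44.7 CPM in Trbp-cKO sham hearts and at 98.0, 78.0, 90.3 and 148.3 CPM in Trbp-cKO TAC hearts. The lowest Trbp-cKO TAC heart was above the highest heart of any other group. The rise after TAC was called in Trbp-cKO hearts (log2 1.20, SE 0.16, adjusted p = 0.000264) and missed the adjusted p in controls (1.41-fold, 0.50, SE 0.16, adjusted p = 0.0769), where it passed with the edgeR exact test (0.0253) and DESeq2 (0.0414). These responses were not shown to differ (interaction 0.70, SE 0.23, adjusted p = 0.153). In Trbp-cKO TAC against control TAC, Ltbp3 passed the adjusted p but not the fold threshold (1.66-fold, 0.73, SE 0.16, adjusted p = 0.019). The control value passed the adjusted p without control TAC replicate 3 (0.0469) or Trbp-cKO TAC replicate 4 (0.0141), and the TAC group value passed both thresholds without Trbp-cKO TAC replicate 2 (0.84, adjusted p = 0.00862) and was 0.51 without replicate 4 (0.0203). The latter difference also passed both thresholds with library-size scaling (0.88, adjusted p = 0.00695), and lost its adjusted p in the fit of the TAC groups alone (0.189), with the edgeR exact test (0.0777) and with the replicate block (0.0522).

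Ltbp1, which targets latent TGF-β to fibronectin and fibrillin fibres, went the other way. It was at 37.7, 38.8, 34.8 and 37.8 CPM in control sham and 25.9, 22.3, 29.1 and 30.4 CPM in control TAC hearts. It was at 38.6, 37.4, 38.6 and 40.7 CPM in Trbp-cKO sham and 32.1, 28.1, 31.2 and 29.4 CPM in Trbp-cKO TAC hearts. Every TAC heart was below every sham heart of either background. Ltbp1 fell by 0.47 on the log2 scale in controls (SE 0.09, adjusted p = 0.0113) and by 0.36 in Trbp-cKO hearts (SE 0.09, adjusted p = 0.0218), short of the fold threshold in both. The second lost its adjusted p without Trbp-cKO sham replicate 4 (0.0681) or Trbp-cKO TAC replicate 2 (0.0601), with library-size scaling (0.0845), with no filter (0.0608) and with the clock score (0.255). The fall in controls lost it in the fit of the control groups alone (0.0716) and with the clock score (0.0617).

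Ltbp4, the most abundant member, ranged from 351.9 to 379.6 CPM in control sham, 514.6 to 721.1 in control TAC, 369.3 to 477.4 in Trbp-cKO sham and 438.2 to 981.6 in Trbp-cKO TAC hearts. The Trbp-cKO TAC hearts overlapped both the Trbp-cKO sham and the control TAC hearts. Its rise after TAC passed the adjusted p alone, at 1.69-fold in controls (0.76, SE 0.20, adjusted p = 0.0371) and 1.62-fold in Trbp-cKO hearts (0.70, SE 0.20, adjusted p = 0.0384). Both lost it with no filter (0.0549 and 0.0557), the replicate block (0.0824 and 0.0963) and the clock score (0.0566 and 0.558), the rise in controls also with library-size scaling (0.0539) and that in Trbp-cKO hearts in the fit of those 2 groups alone (0.0998). Both were also unstable to single hearts. In controls the adjusted p was 0.0502 to 0.111 without any one of control sham replicates 1 to 4, control TAC replicates 1 and 2, Trbp-cKO sham replicates 2 and 4 or Trbp-cKO TAC replicate 1, and both thresholds were passed without control TAC replicate 3 (0.83) or 4 (0.80). In Trbp-cKO hearts it was 0.0526 to 0.111 without any one of control sham replicates 1 to 4, Trbp-cKO sham replicates 1, 2 and 4 or Trbp-cKO TAC replicates 1 and 4, and both thresholds were passed without Trbp-cKO TAC replicate 2 (0.85). The difference from control TAC was 0.11 (SE 0.20, adjusted p = 0.792).

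In level per kb, Ltbp4 made up 85.8% ± 0.65 of the LTBP sum (control sham), 84.4% ± 1.7 (control TAC), 85.6% ± 1.0 (Trbp-cKO sham) and 71.95% ± 0.49 (Trbp-cKO TAC). The share of Ltbp2 was 1.41% ± 0.25, 7.10% ± 2.6, 2.71% ± 0.85 and 17.7% ± 1.5 in the same order. In the order of the 10 members by level per kb, Ltbp2 was last in control sham (0.916 CPM per kb) and in Trbp-cKO sham hearts (2.00), rank 4 in control TAC (8.39) and rank 3 in Trbp-cKO TAC hearts (25.8). With the longest transcript as the length, Ltbp2 (31.2) lay above Tgfb3 (28.8) in Trbp-cKO TAC hearts. Ltbp4 was first in every group (56.1, 95.02, 63.2 and 102 CPM per kb in control sham, control TAC, Trbp-cKO sham and Trbp-cKO TAC), with no overlap with the next member. In control sham hearts neighbours among the 7 members from Tgfbr2 (5.98 CPM per kb) to Ltbp1 (3.49) overlapped in range, and only Tgfb2 (2.19) and Ltbp2 below them stood clear. This order changed with the longest transcript as the length, where Tgfb1 (11.7) and Ltbp3 (7.74) lay above Tgfbr2 (6.05). In Trbp-cKO TAC hearts neighbours from Tgfb3 (28.8) to Tgfbr1 (7.82) overlapped, and Tgfbr1 stood clear of Tgfbr3 (3.42) below it.

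Among the receptors, Tgfbr1 was called after TAC in Trbp-cKO hearts, Tgfbr2 passed the adjusted p alone there and Tgfbr3 passed no test. Tgfbr1, the kinase that phosphorylates Smad2 and Smad3, was at 30.5, 30.1, 31.4 and 29.0 CPM in control sham and 37.4, 41.3, 32.3 and 30.5 CPM in control TAC hearts. It was at 27.9, 27.2, 28.9 and 29.9 CPM in Trbp-cKO sham and 53.7, 37.8, 40.6 and 72.3 CPM in Trbp-cKO TAC hearts. The Trbp-cKO TAC hearts were all above the sham hearts of their background and overlapped control TAC hearts. The rise after TAC in Trbp-cKO hearts was called (1.79-fold, log2 0.84, SE 0.16, adjusted p = 0.0037), fell short of the fold threshold without Trbp-cKO TAC replicate 4 (0.63, adjusted p = 0.00473) and had an adjusted p of 0.134 with the clock score in the fit. In controls the change was 0.23 (SE 0.16, adjusted p = 0.375), and the interaction was 0.62 (SE 0.23, adjusted p = 0.213). The Trbp-cKO TAC minus control TAC value was 0.53 (SE 0.16, adjusted p = 0.0701), 0.65 (adjusted p = 0.0322) without Trbp-cKO TAC replicate 2 and 0.32 (0.123) without replicate 4. It passed the adjusted p with DESeq2 (0.0238) and with library-size scaling (0.022).

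Tgfbr2, which binds ligand first, ranged from 46.8 to 51.4 CPM in control sham, 52.2 to 63.2 in control TAC, 50.5 to 56.9 in Trbp-cKO sham and 62.9 to 85.7 in Trbp-cKO TAC hearts. After TAC it rose 1.33-fold in Trbp-cKO hearts by the adjusted p alone (log2 0.41, SE 0.10, adjusted p = 0.0174), and was 0.22 higher in controls (SE 0.10, adjusted p = 0.183). The rise lost its adjusted p in the fit of the Trbp-cKO groups alone (0.0598), with the replicate block (0.0524) and with the clock score (0.25, adjusted p = 0.428). The Tgfbr2 difference between the TAC groups was 0.33 (adjusted p = 0.0715), and it passed the adjusted p with DESeq2 (0.00968) and with library-size scaling (0.0191). Tgfbr3 ranged from 23.1 to 29.0 CPM in control sham, 16.5 to 28.3 in control TAC, 27.2 to 29.8 in Trbp-cKO sham and 16.1 to 27.7 in Trbp-cKO TAC hearts, and passed no test (log2 -0.13, adjusted p = 0.668 for TAC in controls, and -0.36, adjusted p = 0.228 for TAC in Trbp-cKO hearts). The summed receptor level per kb was 14.4 ± 0.27 (control sham), 15.9 ± 0.47 (control TAC), 15.3 ± 0.35 (Trbp-cKO sham) and 20.0 ± 4.0 (Trbp-cKO TAC).

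**Figure D3:**
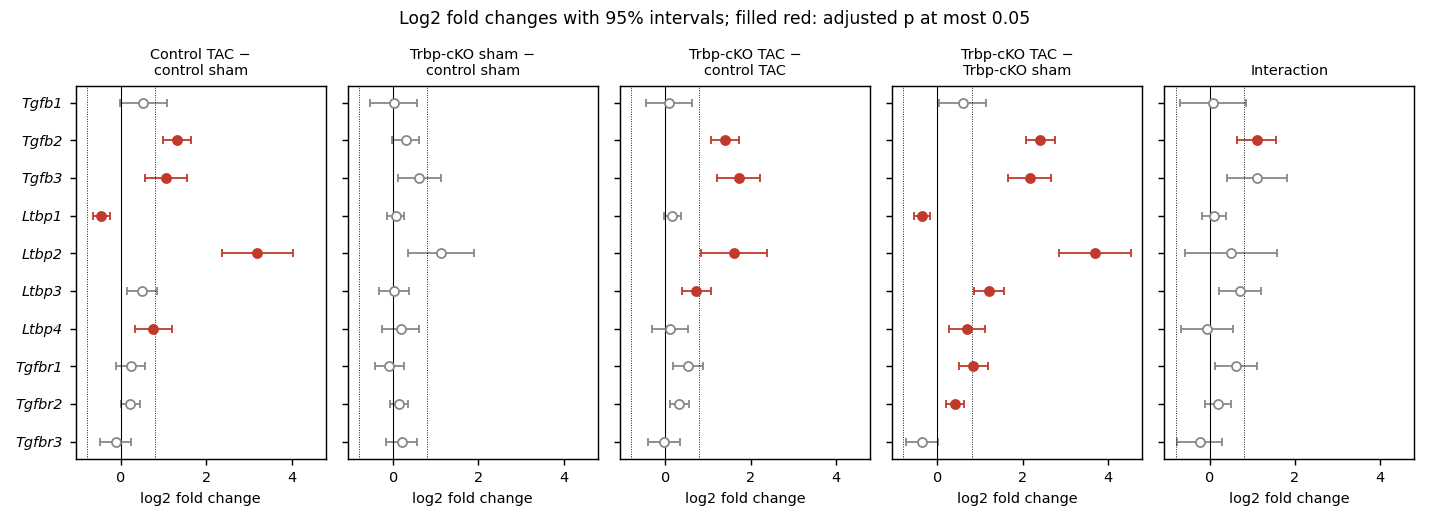
Log2 fold change of each member (x axis) in each comparison, with the interaction as the difference between the TAC responses. Points are edgeR estimates, bars are 95% intervals not adjusted for multiple testing, filled red points have an adjusted p of at most 0.05, and dotted lines mark the fold threshold of 0.8. Tgfb2, Tgfb3 and Ltbp2 are filled in the 3 comparisons that involve TAC hearts, and no member is filled between the sham groups.

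Set against all genes, 3 of 10 members were called higher after TAC in controls (Tgfb2, Tgfb3, Ltbp2) where 2.5% of genes were, and 5 of 10 after TAC in Trbp-cKO hearts (with Ltbp3 and Tgfbr1 added) where 3.23% were. Between the TAC groups the count was 3 of 10 (Tgfb2, Tgfb3, Ltbp2) against 1.55%. No member was called lower in these 3 comparisons, in which 1.25%, 2.34% and 0.912% of genes were. The median log2 fold change of the members was 0.51, 0.77 and 0.43 in the same order, and that of all genes tested was 0.02, -0.00 and -0.01. By the adjusted p alone, 4 members were higher and 1 lower after TAC in controls (4.09% and 2.2% of genes), 7 higher and 1 lower after TAC in Trbp-cKO hearts (6.02% and 3.92%), and 4 higher and 0 lower between the TAC groups (3.88% and 1.65%). Hearts of the groups compared did not overlap for 6 members higher and 1 lower after TAC in controls, as for 8.64% and 8.78% of genes, for 6 higher and 1 lower after TAC in Trbp-cKO hearts (9.05% and 8.14%), and for 4 higher and 0 lower between the TAC groups (6.12% and 3.93%). These comparisons share groups and their values are therefore given side by side.

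Without TAC, no member was called between Trbp-cKO sham and control sham hearts in the edgeR quasi-likelihood fit of all groups, where 0.511% of genes were called higher and 0.456% lower (1.02% and 0.666% by the adjusted p alone). In this comparison 2 members, Tgfb3 and Ltbp2, had an unadjusted p under 0.05, against 13.7% of genes. Ltbp2 was 2.18-fold higher (log2 1.12, SE 0.36, adjusted p = 0.149), Tgfb3 1.53-fold (0.62, SE 0.23, adjusted p = 0.228) and Tgfb2 1.22-fold (0.29, SE 0.15, adjusted p = 0.429). In these 3 genes all Trbp-cKO sham hearts lay above all control sham hearts (two-sided exact permutation p = 0.0286, the smallest that 4 against 4 hearts allow), as in 7.74% of all genes, and no member lay wholly below, as 6.96% of genes did. The Ltbp2 difference was called by the edgeR exact test (adjusted p = 5.44e-05), by DESeq2 (0.0415) and in a fit of the sham groups alone (0.0152), so the call changed with the test and with the groups fitted. The Tgfb3 difference passed the adjusted p, short of the fold threshold, with the exact test (0.000539) and in the fit of the sham groups alone (0.0133). For the other 7 members the log2 difference was between -0.09 and 0.20. The summed level of 6 activated fibroblast markers was also higher, at 470.7 to 709.2 CPM in Trbp-cKO sham against 208.1 to 356.5 CPM in control sham hearts, with Acta2 the only one of the 6 called (log2 1.18). Acta2 made up most of this sum in both groups, with means of 498.6 CPM in Trbp-cKO sham and 219.8 CPM in control sham hearts. The sum of 8 general fibroblast markers was also higher without overlap (1626 to 2181 against 1483 to 1597 CPM), with none of the 8 called and a median log2 difference of 0.54, and the clock score did not overlap between these groups. The sum of 5 atrial markers was higher without overlap as well (16.2 to 23.4 against 13.0 to 15.9 CPM), with none of the 3 tested called. With the clock score in the fit the Tgfb3 difference was 1.74 and the Ltbp2 difference was 1.69, and no member was called.

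Cell type markers differed between the groups as well. Of 6 activated fibroblast markers (Postn, Cthrc1, Acta2, Meox1, Comp, Fap), Postn, Cthrc1, Meox1 and Comp rose after TAC in both backgrounds, Acta2 fell in controls, and Postn, Cthrc1 and Acta2 were called higher in Trbp-cKO TAC than in control TAC hearts. Their sum was 268.3 to 730.6 CPM in control TAC and 946.2 to 2135 CPM in Trbp-cKO TAC hearts, and Cthrc1 averaged under 1 CPM in all groups but Trbp-cKO TAC. The sum of 8 general fibroblast markers overlapped between the TAC groups (1624 to 2267 CPM in control and 1511 to 2412 CPM in Trbp-cKO), as did that of 7 macrophage markers (260.6 to 338.9 and 265.0 to 326.2 CPM). The sum of 7 smooth muscle and pericyte markers did not overlap, at 901.3 to 1063 CPM in control TAC and 743.7 to 818.5 CPM in Trbp-cKO TAC hearts, although none of the 7 was called lower and Cnn1 was called higher (log2 0.90, adjusted p = 0.0453). The sums of 7 endothelial markers overlapped (778.6 to 1636 and 665.2 to 1151 CPM), and all 7 had a log2 fold change below 0 between the TAC groups, with a median of -0.45 and none called. Lymphocyte markers summed to 4.22 CPM at most in any heart, and no marker of the lists was at 0 counts in a group. After TAC in controls the general fibroblast sum was higher than in sham hearts without overlap (1624 to 2267 against 1483 to 1597 CPM), with Col8a1 and Mfap4 called. The sum of 8 cardiomyocyte markers was lower there without overlap (19215 to 44667 against 46325 to 49226 CPM), with all 8 below 0 on the log2 scale, a median of -0.47 and none called. The 7 endothelial markers were all above 0, with a median of 0.48 and Egfl7 called. After TAC in Trbp-cKO hearts the general fibroblast (1511 to 2412 against 1626 to 2181 CPM) and cardiomyocyte sums (27404 to 44289 against 39045 to 47752 CPM) overlapped with sham. The smooth muscle and pericyte sum was lower there without overlap (743.7 to 818.5 against 842.3 to 1060 CPM). Of its markers, Cnn1 and Cspg4 were called higher and 1 was lower by the adjusted p alone. The activated fibroblast sum was higher there without overlap (946.2 to 2135 against 470.7 to 709.2 CPM). The part of cell composition in the member values was not tested.

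Within groups the members were not equally related. Correlations of log2 CPM are given as a description over 16 hearts that share 4 group means. Across all hearts Tgfb2 followed Ltbp2 (r = 0.947) and Ltbp3 (r = 0.902), but after group means were subtracted these values were 0.30 and -0.02. Ltbp3 and Ltbp4 kept their relation within groups (r = 0.967), as did Ltbp4 and Tgfbr1 (0.92), while Tgfb2 and Tgfbr3 were opposed (-0.77). Trbp-cKO TAC replicate 4 had the highest Tgfb1, Ltbp2, Ltbp3, Ltbp4, Tgfbr1, Tgfbr2 and Tgfbr3 of its group and the lowest Tgfb2. This heart also had the lowest cardiomyocyte marker sum of its group (27404 CPM) and the highest endothelial (1151 CPM) and activated fibroblast sums (2135 CPM). Its mitochondrial share was 24.9%, against 18.2, 20.3 and 19.0% in replicates 1, 2 and 3. The part of these differences in the member values was not tested.

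The genes whose pattern over the 16 hearts was most like that of a member, among 14607 compared, differed between members. For Ltbp2 they were Cilp (r = 0.994), Postn (0.994) and Mfap4 (0.992), all encoding matrix proteins. For Ltbp3 they were Col5a2 (0.991), Loxl2 (0.984) and Prelp (0.979), a collagen, a collagen cross-linking enzyme and a matrix proteoglycan. For Tgfb2 they were Gm41505 (0.985), Enah (0.981), an actin regulator, and Adamts8 (0.977), a secreted protease, and for Tgfb3 they were Bcl2 (0.973), Iah1 (0.970) and Tspan17 (0.970). Tgfb1 was most like Reep3 (0.973), Tgfbr1 like Col13a1 (0.961), Tgfbr2 like Fgfr1 (0.957), Ltbp4 like Col27a1 (0.956) and Tgfbr3 like Zc3h6 (0.877). By Spearman correlation Postn was closest to Ltbp2 (0.991) and Gm41505 remained closest to Tgfb2 (0.974), whereas Rab4b was closest to Tgfb3 (0.977). Those closest to Ltbp3 changed to Mxra7 (0.959), Mgat5b (0.959) and Slc1a4 (0.947), with Col5a2 at 0.903.

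In the lists that follow, counts of genes that rose or fell are by both thresholds unless stated. Of all genes tested, 2.5% were called higher and 1.25% lower after TAC in controls, and 3.23% and 2.34% in Trbp-cKO hearts. Between the TAC groups 1.55% were called higher and 0.912% lower, and between the sham groups 0.511% and 0.456%. The lists were chosen with earlier results of these data known. Downstream of the receptors, none of the 6 SMAD transducers (Smad1, Smad2, Smad3, Smad4, Smad5, Smad9) passed both thresholds in any comparison. Smad3, which carries the TGF-β signal to DNA, fell by 0.63 on the log2 scale after TAC in controls by the adjusted p alone (SE 0.16, adjusted p = 0.0315). Of 13 SMAD repressors and feedback genes, 2 were called higher after TAC in controls, Tgif1 (log2 1.14) and Pmepa1 (0.96), and 2 in Trbp-cKO hearts, Skil (0.93) and Pmepa1 (1.63). Pmepa1 and Skil are known to be induced by TGF-β and to restrain it. None was called between the TAC groups, and Smurf1 (0.37) and Smurf2 (0.46), ubiquitin ligases that act on the receptors, were higher by the adjusted p alone. Among 7 co-receptors and related type I receptors, Cd109, a TGF-β co-receptor that dampens signalling, rose after TAC in controls (1.02) and in Trbp-cKO hearts (0.92).

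Of 21 genes for latency and activation, 4 were called higher after TAC in Trbp-cKO hearts, namely Thbs1 (2.66), Itgb3 (1.51), Mmp2 (1.02) and Mmp14 (1.02), and Mmp9, at a mean of 0.931 CPM, fell by 1.44 (adjusted p = 0.0473). None was called higher in controls, where Bmp1, a protease, rose by the adjusted p alone (0.77, adjusted p = 0.039) and Thbs1, thrombospondin-1, an activator of latent TGF-β, fell by 2.64 (SE 0.50, adjusted p = 0.00811). Thbs1 was also lower in Trbp-cKO sham than in control sham hearts (log2 -3.94, SE 0.53, adjusted p = 0.00247), and its interaction was 5.30 (SE 0.71, adjusted p = 0.00273). Mmp2, a matrix protease, was the only gene of this list called between the TAC groups (1.10, SE 0.23, adjusted p = 0.0129).

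Of 17 microfibril and matrix partners of the LTBPs, 5 rose after TAC in controls, namely Fmod (4.00), Mfap4 (2.38), Mfap5 (2.16), Adamtsl2 (1.84) and Bgn (1.42), and 13 rose in Trbp-cKO hearts, among them Fmod (6.12), Mfap4 (2.53), Mfap5 (2.42) and Eln (2.25), the gene of elastin. In Trbp-cKO TAC against control TAC 2 were called, Fmod (2.81), a small proteoglycan that binds TGF-β, and Fn1 (1.07), fibronectin. The list's median log2 fold change was 0.64, 1.41 and 0.76 in these comparisons. Fbn2, at a mean of 1.12 CPM, was called lower in Trbp-cKO sham than in control sham hearts (-1.53, adjusted p = 0.045). Its interaction was 2.36 (adjusted p = 0.0364).

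Of 25 TGF-β target genes, which include Ltbp2 itself, 8 rose and 2, Acta2 (-1.27) and Cdkn1a (-1.19), fell after TAC in controls, and 17 rose and none fell in Trbp-cKO hearts. In Trbp-cKO TAC against control TAC 11 were higher and none lower, among them Acta2 (2.35), Lox (2.01) and Ccn2 (1.91). Acta2 was not called after TAC in Trbp-cKO hearts, with means of 498.6 CPM in sham and 465.8 CPM in TAC hearts. In controls its means were 219.8 CPM in sham and 91.2 CPM in TAC hearts. Ccn2, connective tissue growth factor, had an interaction of 3.16 (SE 0.33, adjusted p = 0.000604), and Cdkn1a (2.98) and Scx (1.77) also passed for this term. Between the sham groups the direction was mixed, with Acta2 higher (1.18) and Ccn2 (-1.25) and Cdkn1a (-1.65) lower. The list's median was 0.53, 1.74, 0.92 and 0.06 for TAC in controls, TAC in Trbp-cKO, Trbp-cKO TAC against control TAC, and Trbp-cKO sham against control sham. This list shares Postn, Acta2 and Comp with the activated fibroblast markers, so the counts of these lists are not independent.

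Of 14 other ligands of the superfamily, 13 were tested and Bmp10 was not. After TAC in controls Gdf15 (2.60), Bmp4 (1.61) and Inhba (1.58) rose. In Trbp-cKO hearts Gdf15 (4.44) and Inhba (1.31) rose and Gdf10 (-1.81) fell. Between the TAC groups Gdf15, a stress-induced cytokine, was the only one called (1.95, SE 0.54, adjusted p = 0.0466), with the list's median at -0.34. Bmp4 (1.05) and Gdf10 (1.42) were higher in Trbp-cKO sham than in control sham hearts, and their interactions were -1.20 and -2.09.

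**Figure D4:**
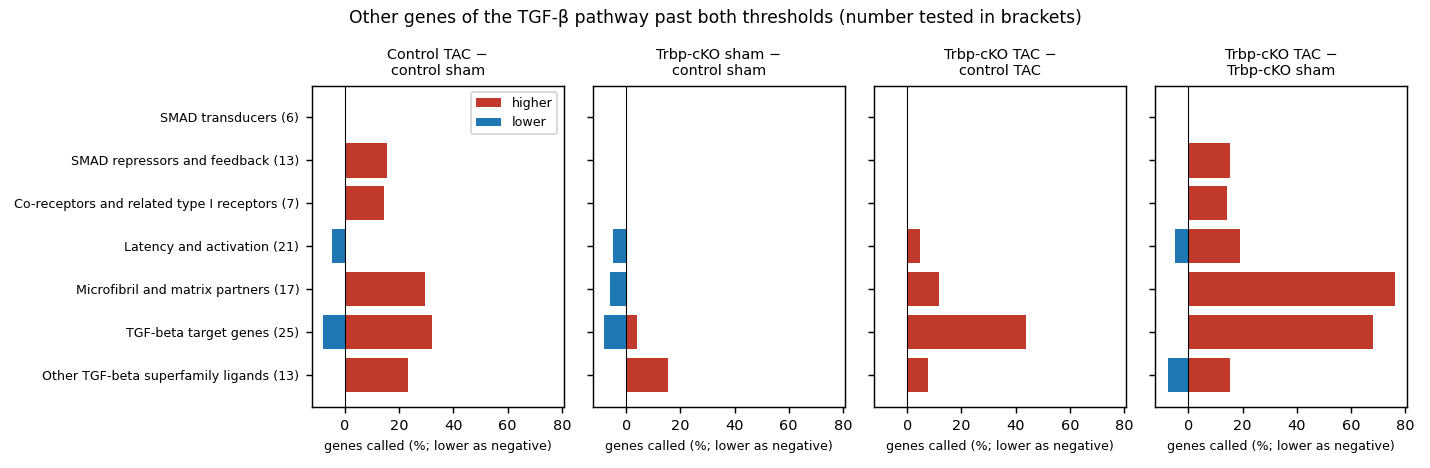
Share of each list of TGF-β pathway genes (number tested in brackets) past both thresholds in 4 comparisons, in percent, higher in red to the right and lower in blue to the left of 0. Matrix partners (13 of 17) and target genes (17 of 25) have the longest bars after TAC in Trbp-cKO hearts, and SMAD transducers have none. Of all genes tested, 3.23% were called higher after TAC in Trbp-cKO hearts.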

How the data were processed

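Ventricular RNA of 16 mice was sequenced in pairs of reads. Per the labels and processing notes, the authors used cutadapt 2.3, FastQC, HISAT2 2.1.0 and StringTie 1.3.4 on GRCm38 and deposited 1 matrix of read counts per gene. StringTie's counts are derived from coverage and an assumed read length, so their absolute scale may be off by a constant; counts divided by 2 were tried. Counts were fitted with edgeR 4.0.16 (R 4.3.3; TMM, filterByExpr, robust quasi-likelihood, 1 coefficient per group), with Benjamini-Hochberg adjustment over 19955 genes and no covariates; edgeR's exact test and DESeq2 1.42.0 were alternatives, with scaling, filters, single hearts, replicate block and clock score. The fit was tested on simulated data, where many of the changes made did not pass the adjusted p, though all had the right sign. A gene that was not called may therefore still differ. Levels are CPM on TMM sizes, per kb of merged GENCODE exons where genes are compared; likeness used log2 CPM (prior count 2, mean of at least 1 CPM). Named were all members, up to 4 called genes per list and comparison with the largest fold change, and the 3 genes most like each member. A few genes that this rule takes are not reported here. Other genes are named beside a result as context, chosen after their values were seen. Members and lists were chosen with earlier results of these data known. Replicates are separate hearts; intervals cover the spread between them. The replicate numbers do not pair hearts. Promoter motifs came from RefSeq; figures used matplotlib.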

Additional observations from a re-analysis of the deposited data

Results flagged for a closer look

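In 40 sets of 4 hearts (10 members in 4 groups), 2 had a heart set apart from the other 3 by more than Dixon's critical value for 4 samples allows, where chance gives about 1 in 20. Both were Tgfb1: Trbp-cKO sham replicate 3 at 39.3 CPM (gap 0.876 of the range) and Trbp-cKO TAC replicate 4 at 67.2 CPM (gap 0.957). Without the latter the Tgfb1 difference between the TAC groups was -0.16 on the log2 scale.

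The Tgfb2 response to TAC differed between backgrounds by a test of the difference itself, at 1.10 on the log2 scale, with the limits given above.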

How the results depend on the processing

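The Tgfb2 and Ltbp2 calls after TAC in both backgrounds, the Tgfb3 and Ltbp3 calls after TAC in Trbp-cKO hearts and the Tgfb2 call between the TAC groups held under all 25 alternatives run for each. The count of members past both thresholds between the sham groups was 0 in the fit of all groups and 1 (Ltbp2) in the fit of the 2 sham groups, with the edgeR exact test and with DESeq2. For Trbp-cKO TAC against control TAC it was 3, and 1 in the fit of those 2 groups. For the interaction it was 1, and 2 with DESeq2 (Tgfb3 added, adjusted p = 0.0281), 0 with the clock score and 0 to 1 with single hearts left out. The fit of 2 groups and the exact test cannot give an interaction. The cause of these changes was not tested, apart from fewer hearts where hearts were left out. The replicate numbers did not pair hearts (same-number correlations -0.568 to 0.339); with the replicate block the interaction count was 0 (Tgfb2 adjusted p = 0.0751), and Tgfb3 for TAC in controls (0.052) and Ltbp2 between the TAC groups (0.0589) lost their calls.

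Among values that passed no test, the sign turned for Tgfbr1 between the sham groups (0.012 with library-size scaling, 0.14 with the clock score), for Tgfbr3 between the sham groups (-0.20 with the clock score) and the TAC groups (0.10 with library-size scaling, 0.025 with the clock score), and, for the interaction with the clock score, for Tgfb1 (-0.56), Tgfb3 (-0.22), Ltbp2 (-0.14), Tgfbr2 (-0.12) and Tgfbr3 (0.22). With single hearts left out, Tgfb1 ranged from -0.14 to 0.13 and Ltbp3 from -0.031 to 0.051 between the sham groups. For the TAC groups Tgfb1 ranged from -0.16 to 0.30, Tgfbr3 from -0.18 to 0.091 and Ltbp4 from -0.14 to 0.26. For the interaction Tgfb1 ranged from -0.18 to 0.29 and Ltbp4 from -0.32 to 0.091. The clock score moved Tgfb3 after TAC to 1.66 in controls and 1.44 in Trbp-cKO hearts. Library-size scaling moved the median of all genes by 0.138 between the TAC groups.

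With the longest transcript as length, control sham levels in CPM per kb were 11.7 for Tgfb1, 2.48 for Tgfb2, 5.59 for Ltbp1, 1.11 for Ltbp2, 7.74 for Ltbp3, 67.3 for Ltbp4 and 5.25 for Tgfbr1. Genes called numbered 748 after TAC in controls (277 to 1583 over alternatives), 193 between the sham groups (0 to 584), 491 between the TAC groups (84 to 764), 1112 after TAC in Trbp-cKO (432 to 1376) and 174 for the interaction (1 to 552).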
